A study of Homo sapiens with 6 samples.

Results

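The 10 genes described here are feedback inhibitors and outputs of ERK signalling: DUSP4, DUSP5, DUSP6, SPRY2, SPRY4, SPRED1, SPRED2, ETV4, ETV5 and PHLDA1. They were taken by name from the deposited tables, and all 10 were found among 60835 distinct gene names and passed the filter on low counts. All libraries came from HEY, an established line of human ovarian carcinoma. A CCNL2-targeting siRNA (siCCNL2) was given to 3 libraries, and a control siRNA (siNC) to the other 3. The protocol text is identical for all libraries and gives 48 h of the CCNL2 siRNA, so no separate time is given for siNC. Whether the libraries of a group are separate cultures is not stated in the labels. The p-values therefore cover library-to-library spread alone, which could be technical. Each group is a single cell line under a single siRNA label.

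Growth factor receptors pass their signal through RAS to the kinases RAF, MEK and ERK. Active ERK induces its own inhibitors: dual-specificity phosphatases that remove phosphate from ERK, and Sprouty and SPRED proteins that act further up, at the level of RAS and RAF. ERK also induces transcription factors of the ETS family such as ETV4 and ETV5, and transcript levels of these genes are widely used as a readout of pathway output in cancer cells.

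The target of the siRNA was checked first. CCNL2, which encodes cyclin L2, stood at 203, 182 and 186 CPM (read counts scaled to TMM-adjusted library size) in siCCNL2, against 261, 267 and 246 CPM in siNC, a fall of 26.3% (log2 fold change -0.44, SE 0.044). Total counts ran from 13596286 to 18095529 per library, and the 10 members together took 0.106% to 0.109% of the counts in siCCNL2 and 0.112% to 0.115% in siNC. Keratins and vimentin marked the cells: the summed score of 7 ovarian carcinoma and epithelial markers was 2253 to 2346 in siCCNL2 and 3023 to 3070 in siNC, and that of 4 mesenchymal markers was 2182 to 2275 in siCCNL2 and 2169 to 2226 in siNC. The score is the authors' TPM-like value per gene length. MUC16, an ovarian carcinoma antigen, reached at most 7 counts, while 8 markers of blood, vessel and liver cells summed to at most 2.81 in siCCNL2 and 3.46 in siNC. PAX8, WT1, KRT7, KRT8 and KRT18 were called lower in siCCNL2, and EPCAM, of the same list, was not called (log2 fold change 0.58, edgeR adjusted p = 0.0856). Of the mesenchymal markers CDH2 was called higher (0.21, edgeR adjusted p = 3.53e-04) and VIM, FN1 and ZEB1 were not called. The part of these markers in the results on ERK genes was not tested.

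Among the members, DUSP4, DUSP6, SPRY2, SPRY4 and SPRED1 fell in siCCNL2, while DUSP5, SPRED2, ETV4, ETV5 and PHLDA1 were not called. Thus 5 of 10 members were called lower at an adjusted p under 0.05 by edgeR's quasi-likelihood test, where 16.5% of the 15346 tested genes were called lower and 33.6% in either direction. None was called higher by edgeR, by the DESeq2 Wald test or by limma-voom, where edgeR called 17.2% of all tested genes higher. On that side 0 members had an unadjusted edgeR p under 0.05, against 3257 of the 15346 tested genes. The same 5 members had groups that did not overlap in CPM, all with siCCNL2 below, which held for 21.8% of tested genes (22.1% had siCCNL2 above, 43.9% either). The falls were modest. Members had a median log2 fold change of -0.10, against 0.0023 over all tested genes, and the 5 called members had a median absolute change of 0.24, against 0.33 over all called genes. In bulk RNA, a lower level in each cell and a smaller share of expressing cells cannot be told apart.

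**Figure D1:**
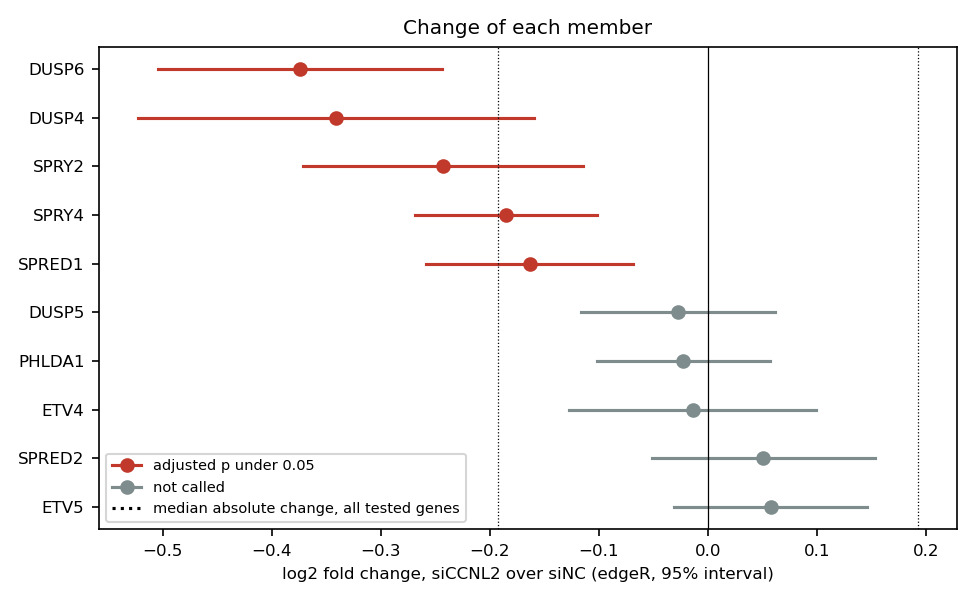
Log2 fold change of each member, siCCNL2 over siNC, with its 95% interval from edgeR. The dotted lines mark plus and minus 0.19, the median absolute change of all tested genes. The intervals of DUSP6, DUSP4, SPRY2, SPRY4 and SPRED1 lie below 0 and those of the other 5 members span it.

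The dual-specificity phosphatases dephosphorylate the threonine and tyrosine of active ERK. DUSP6 is the cytoplasmic, ERK-selective member (ENSG00000139318, chromosome 12, 89347235 to 89352501 on GRCh38, minus strand). It stood at 33.2, 34.8 and 33.8 CPM in siCCNL2, against 41.9, 43.7 and 46.4 CPM in siNC. Every siCCNL2 library lay below every control, and the 3 siCCNL2 libraries lay close together. The log2 fold change was -0.37 with SE 0.063 (edgeR adjusted p = 4.94e-05), a change of -22.8% with a 95% interval of -29.5% to -15.5%. On the length-scaled score the 3 siCCNL2 libraries all stood at 28.6, against 35.8, 37.2 and 38.9 in siNC. With 606, 467 and 532 counts in these siCCNL2 libraries, such closeness is no measure of precision, and their CPM spread more. The 300 bases around its RefSeq start site (250 before and 50 after) are shown because DUSP6 changed most among the members. Capitals here and in the windows further down mark letters that match a searched motif.
DUSP6, chr12:89352452-89352751, minus strand: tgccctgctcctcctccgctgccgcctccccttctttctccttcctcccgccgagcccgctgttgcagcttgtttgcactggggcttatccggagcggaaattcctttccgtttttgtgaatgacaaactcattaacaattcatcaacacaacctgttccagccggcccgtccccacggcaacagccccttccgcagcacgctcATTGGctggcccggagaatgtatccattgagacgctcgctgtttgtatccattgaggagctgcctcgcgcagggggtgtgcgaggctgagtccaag

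DUSP4, a nuclear phosphatase of ERK and other MAP kinases (ENSG00000120875, chromosome 8, 29333064 to 29350684, minus strand), was the least abundant member. It had 19.8, 22.2 and 21.4 CPM in siCCNL2, against 24.9, 24.95 and 30.3 CPM in siNC. Its siCCNL2 libraries were all lower, and siNC replicate 3 stood well above the other 2 controls. The log2 fold change was -0.34 with SE 0.088 (edgeR adjusted p = 0.0037). Without siNC replicate 3 it was -0.24 (adjusted p = 0.0462), still called.

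DUSP5, a nuclear phosphatase specific to ERK (ENSG00000138166, chromosome 10, 110497907 to 110511533, plus strand), stood apart from both relatives. It had 129, 129 and 135 CPM in siCCNL2, against 131, 131 and 139 CPM in siNC. The groups overlapped, the log2 fold change was -0.03 with SE 0.043 (edgeR adjusted p = 0.669), and the 95% interval ran from -7.76% to 4.35%. That interval does not reach the falls measured for DUSP4 and DUSP6.

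Sprouty proteins are induced by growth factors and dampen the step from receptor to RAS and RAF. SPRY2 (ENSG00000136158, chromosome 13, 80335976 to 80341126, minus strand) had 37.0, 41.2 and 39.4 CPM in siCCNL2, against 47.5, 44.1 and 47.1 CPM in siNC. Every siCCNL2 library was below every control, with siCCNL2 replicate 2 nearest to siNC replicate 2. The log2 fold change was -0.24 with SE 0.062 (edgeR adjusted p = 0.0036), or -15.5% (95% interval -22.7% to -7.63%). SPRY4 (ENSG00000187678, chromosome 5, 142310427 to 142326455, minus strand) had 147, 144 and 153 CPM in siCCNL2, against 167, 168 and 170 CPM in siNC. Its controls were the tightest of any member on the score, at 96.6, 97.2 and 97.0, against 85.8, 80.2 and 87.9 in siCCNL2. The log2 fold change was -0.19 with SE 0.040 (edgeR adjusted p = 8.53e-04). The start-site windows of both are given because both Sprouty genes fell. The start site of the SPRY4 window lies 2208 bases inside the annotated gene.
SPRY2, chr13:80341077-80341376, minus strand: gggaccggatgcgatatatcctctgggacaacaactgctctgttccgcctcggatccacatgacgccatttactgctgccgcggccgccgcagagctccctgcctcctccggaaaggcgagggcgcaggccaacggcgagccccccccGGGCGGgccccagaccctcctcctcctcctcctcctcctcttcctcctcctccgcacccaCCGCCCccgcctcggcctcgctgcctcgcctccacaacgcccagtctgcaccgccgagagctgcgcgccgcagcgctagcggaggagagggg
SPRY4, chr5:142324198-142324497, minus strand: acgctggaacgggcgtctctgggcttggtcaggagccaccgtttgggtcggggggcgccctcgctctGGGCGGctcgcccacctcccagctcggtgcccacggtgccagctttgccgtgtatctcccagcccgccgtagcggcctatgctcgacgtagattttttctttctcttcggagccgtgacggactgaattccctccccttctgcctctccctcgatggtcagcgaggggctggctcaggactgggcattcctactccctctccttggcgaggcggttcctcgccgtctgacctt

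SPRED proteins are membrane relatives of the Sproutys, and SPRED1 recruits neurofibromin to switch RAS off. SPRED1 (ENSG00000166068, chromosome 15, 38252836 to 38357249, plus strand) had 136, 129 and 145 CPM in siCCNL2, against 151, 148 and 160 CPM in siNC. The gap between the groups was narrow, with siCCNL2 replicate 3 just under siNC replicate 2. Its log2 fold change was -0.16 with SE 0.046 (edgeR adjusted p = 0.0076), and this call was the least secure of the 5. It was lost without siCCNL2 replicate 2 (-0.12, adjusted p = 0.0558) and without siNC replicate 3 (-0.13, adjusted p = 0.0507) by edgeR. A limma-trend fit to the log2 score also lost it, at adjusted p = 0.054 with a pseudocount of 1 and 0.0546 with 0.1.

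SPRED2 (ENSG00000198369, chromosome 2, 65310851 to 65432637, minus strand) had 83.7, 81.9 and 88.8 CPM in siCCNL2, against 81.6, 80.1 and 84.0 CPM in siNC. The groups overlapped, and the log2 fold change was 0.05 with SE 0.049 (edgeR adjusted p = 0.469), with a 95% interval of -3.49% to 11.2%. Both start-site windows are shown to set the called gene beside its relative.
SPRED1, chr15:38252586-38252885, plus strand: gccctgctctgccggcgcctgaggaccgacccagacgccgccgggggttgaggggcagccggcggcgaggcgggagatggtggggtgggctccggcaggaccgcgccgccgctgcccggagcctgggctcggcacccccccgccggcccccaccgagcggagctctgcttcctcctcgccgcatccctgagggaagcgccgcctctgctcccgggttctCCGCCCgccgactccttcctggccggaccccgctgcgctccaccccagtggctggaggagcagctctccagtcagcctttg
SPRED2, chr2:65432550-65432849, minus strand: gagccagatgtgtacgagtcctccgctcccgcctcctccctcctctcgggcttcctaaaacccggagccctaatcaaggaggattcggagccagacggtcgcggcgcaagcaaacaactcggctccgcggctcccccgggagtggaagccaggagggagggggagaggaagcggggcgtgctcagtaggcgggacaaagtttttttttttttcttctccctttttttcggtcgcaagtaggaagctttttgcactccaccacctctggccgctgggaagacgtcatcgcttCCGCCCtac

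ETV4 and ETV5 are ETS-family transcription factors of the PEA3 group, induced by ERK and by FGF signalling. ETV4 (ENSG00000175832, chromosome 17, 43527844 to 43579620, minus strand) had 60.1, 62.0 and 62.5 CPM in siCCNL2, against 58.4, 63.7 and 64.2 CPM in siNC. ETV5 (ENSG00000244405, chromosome 3, 186046314 to 186110318, minus strand) had 128, 137 and 132 CPM in siCCNL2, against 126, 129 and 127 CPM in siNC. In both genes the groups overlapped in CPM. The log2 fold changes were -0.01 for ETV4 (95% interval -0.13 to 0.10, adjusted p = 0.874 by edgeR) and 0.06 for ETV5 (-0.03 to 0.15, adjusted p = 0.328). On the score the ETV5 groups just parted, with siCCNL2 at 97.7, 100.2 and 99.1 and siNC at 95.3, 97.4 and 94.7.

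PHLDA1, a pleckstrin homology-like protein induced by ERK and by stress (ENSG00000139289, chromosome 12, 76025447 to 76031776, minus strand), was the member with the most reads. It had 274, 301 and 286 CPM in siCCNL2, against 295, 287 and 291 CPM in siNC. The siCCNL2 libraries spread on both sides of the controls (SD 13.3 CPM in siCCNL2 and 3.97 CPM in siNC). The log2 fold change was -0.02 with SE 0.038 (edgeR adjusted p = 0.701, 95% interval -6.79% to 4.01%).

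**Figure D2:**
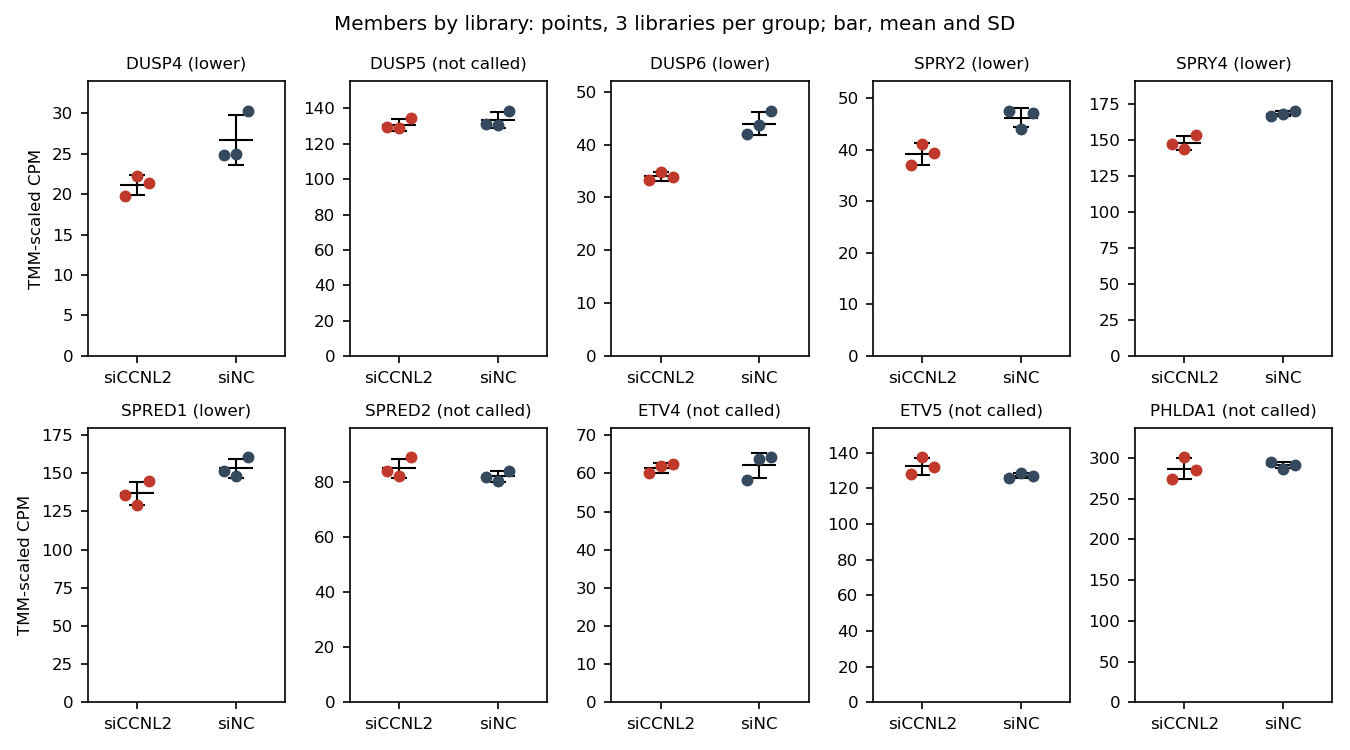
TMM-scaled CPM of each member by library, 3 points per group, with the mean and SD as bars and each axis starting at 0. The siCCNL2 points lie below all siNC points for DUSP4, DUSP6, SPRY2, SPRY4 and SPRED1 and mix with them for the other 5.

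For each of the 5 called members the exact two-sided permutation p over the 6 libraries was 0.1, the smallest that 3 against 3 libraries allow, and for the other 5 members it was 0.2 to 0.7. Within the whole table these changes were ordinary in size. Of the tested genes, 24.1% had a larger absolute log2 fold change than DUSP6, 27.5% than DUSP4, 40.9% than SPRY2, 51.4% than SPRY4 and 56.0% than SPRED1. At the other end, 95.8% changed more than ETV4.

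Levels of different genes can be set side by side only on the score, which is scaled by length. DUSP5 was the most abundant member (161 ± 6.14 in siCCNL2 and 166 ± 4.1 in siNC, mean ± SD, n = 3 each), followed by PHLDA1 (148 ± 3.43 in siCCNL2 and 151 ± 2.47 in siNC). ETV5, SPRY4 and ETV4 came next, between 77.3 and 100.2 in all libraries. SPRED1, SPRED2 and SPRY2 stood between 42.6 and 67.2, DUSP6 between 28.6 and 38.9, and DUSP4 between 11.1 and 16.6. The lowest 3 members were all among those that fell. ETV5 and SPRY4 overlapped in siNC but not in siCCNL2, whereas SPRY4 and ETV4, and SPRED1 and SPRED2, overlapped in siCCNL2 but not in siNC. All other neighbours in this order were apart in both groups.

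**Figure D3:**
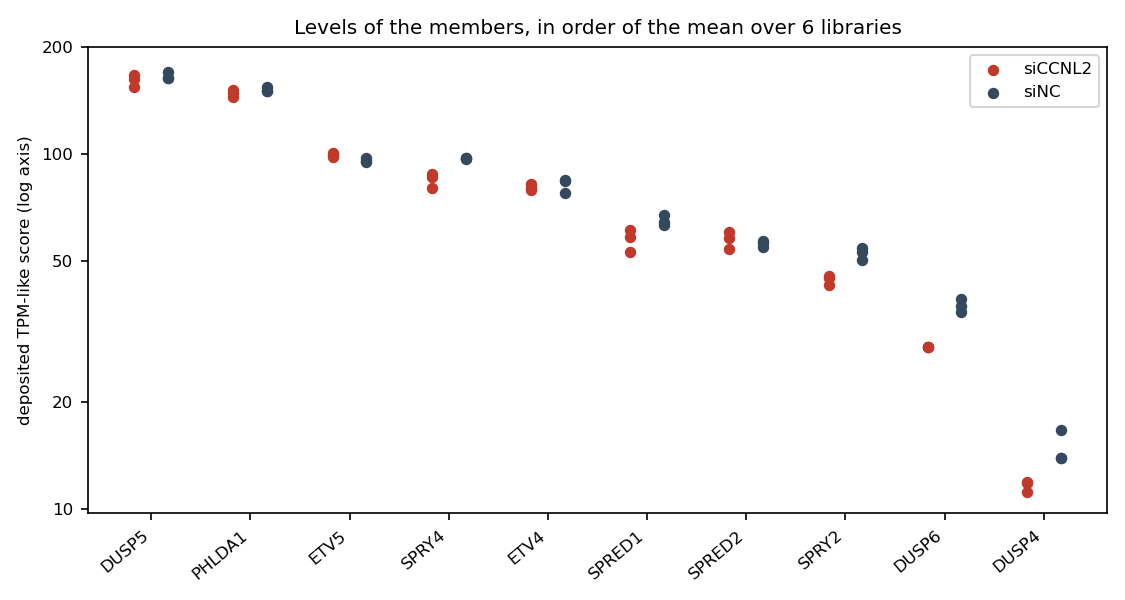
Deposited TPM-like score of the members in each library on a log axis, siCCNL2 left of siNC, in order of the mean over the 6 libraries. DUSP5 is highest, at 155 to 170, and DUSP4 lowest, at 11.1 to 16.6.

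Summed by family on the score, the 2 Sprouty genes had 128, 126 and 133 in siCCNL2, against 151, 148 and 150 in siNC, a difference of -13.8%. The 3 phosphatases had 202, 195 and 207 in siCCNL2, against 213, 214 and 226 in siNC, or -7.43%, since DUSP5 makes up most of that sum. Both families parted by group (exact two-sided permutation p = 0.1 each). The 2 SPRED genes summed to 116, 107 and 121 in siCCNL2 and 120, 118 and 124 in siNC (exact permutation p = 0.3), and the 2 ETV genes to 178, 179 and 181 in siCCNL2 and 173, 182 and 178 in siNC (exact permutation p = 0.7). In both of these the groups overlapped.

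Ratios of 2 members within a library do not depend on how libraries are scaled, and 5 pairs were compared. The DUSP5 to DUSP6 ratio was 5.41 to 5.83 in siCCNL2, against 4.38 to 4.57 in siNC. The mean log2 ratio was 2.50 ± 0.055 in siCCNL2 and 2.15 ± 0.035 in siNC (SD, n = 3 each), a difference of 0.34. The SPRED1 to SPRED2 ratio was 0.982 to 1.01 in siCCNL2, against 1.15 to 1.19 in siNC, a difference of -0.22 on the log2 scale. Neither pair overlapped between the groups, so each gave an exact two-sided permutation p of 0.1, the smallest possible, or 0.25 adjusted over the 5 pairs. In these libraries the 2 SPRED transcripts stood about level in siCCNL2, with SPRED1 ahead in each siNC library.

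The other pairs overlapped. DUSP4 over DUSP6 was 0.389 to 0.417 in siCCNL2 and 0.373 to 0.427 in siNC, with a difference of 0.04 on the log2 scale. SPRY2 over SPRY4 was 0.497 to 0.564 in siCCNL2 and 0.518 to 0.562 in siNC, with a difference of -0.05. ETV4 over ETV5 was 0.789 to 0.827 in siCCNL2 and 0.811 to 0.884 in siNC, with a difference of -0.07. Their exact permutation p-values were 0.6, 0.5 and 0.3 in that order (0.5 to 0.6 adjusted over the 5 pairs). These spreads, and 3 libraries a group, do not show that the ratios were the same.

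**Figure D4:**
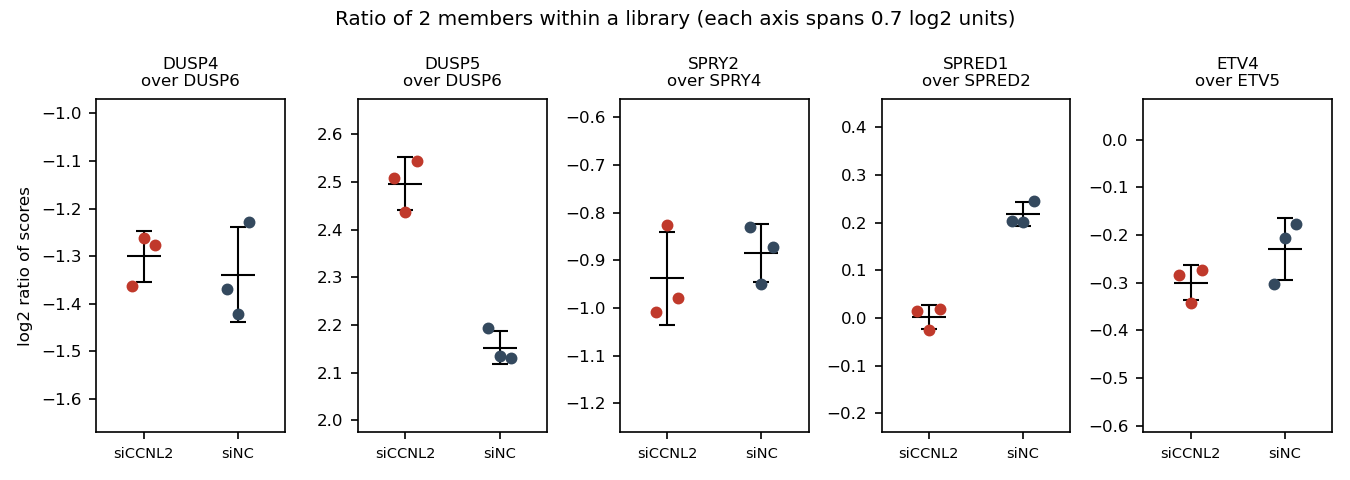
Log2 ratio of the score of 2 members within each library, siCCNL2 left of siNC, with mean and SD. DUSP5 over DUSP6 is higher in all 3 siCCNL2 libraries and SPRED1 over SPRED2 lower, while the other 3 pairs overlap.

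The members lie on 9 chromosomes, with DUSP6 and PHLDA1 both on chromosome 12. Exons of DUSP6 overlap those of an antisense gene over 1875 bases (40.5% of its exon bases in GENCODE release 29). That gene had at most 4 counts in any library, which does not tell how many reads fell in the shared bases. PHLDA1 overlaps 2 antisense transcripts over 553 and 779 exon bases, with at most 9 and 29 counts. In release 29 PHLDA1 and DUSP6 reach up to 2156 and 770 bases beyond the deposited gene ends. Some of these overlaps may therefore lie outside the genes as counted. ETV4 shares 68 exon bases with DHX8 on the opposite strand, and ETV5 shares 164 with DGKG on the same strand, neither of them called. No exon of DUSP4, DUSP5, SPRY2, SPRY4, SPRED1 or SPRED2 overlapped that of another annotated gene. Since strand use in counting is not given in the sources used here, reads of a member and an antisense partner cannot be told apart.

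RefSeq start-site windows (GRCh38.p14) were found for 6 members, in 9 windows of 300 bases, counting alternative starts. DUSP4 was left out of this search, and no windows were found for DUSP5, ETV4 and ETV5. Motifs were searched on both strands. Capicua is a repressor that ERK inactivates and that controls ETV and DUSP genes. Of the octamers it binds, only TGAATGAA and TGAATGGA were searched. These were in 0 of the 9 windows, against 1.65% and 1.03% of 35116 promoter windows. Variants of these octamers were not searched, so this count does not show that DUSP6 or another member lacks a Capicua site. The ETS motif CCGGAAG was in 0 of 9 (10.3% of all) and the cAMP response element TGACGTCA in 0 of 9 (1.85%). TGANTCA, bound by AP-1, was in 1 of 9, an alternative start of SPRED2 (7.71%), which also held the single TATAAA match (11.5%). The GC box GGGCGG was in 6 of 9 (45% of all), among them the printed windows of SPRY2, SPRY4, SPRED1 and SPRED2. CCAAT was in 2 of 9 (34.6%), among them DUSP6, 46 bases before its start. A match or its absence says only that these letters are or are not in the window. The 6 windows nearest the annotated gene starts held 58.3% to 76.3% G and C, against a median of 58.7% over all windows. That of SPRY4 has its start site 2208 bases inside the annotated gene.

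Other genes of the pathway were taken from 8 lists. Of 98 tested genes, 23 were called higher and 19 lower, or 42.9%, against 33.6% of all tested genes, and their median log2 fold change was 0.06. Calls went both ways.

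Growth factor ligands rose in 4 and fell in 2 of 15 tested genes (median log2 fold change 0.36), a called share of 40%, against 33.6% of all tested genes. NRG1, a ligand of the ERBB3 and ERBB4 receptors, averaged 53.5 ± 0.893 CPM in siCCNL2 and 30.4 ± 0.428 CPM in siNC (SD, n = 3 each; log2 fold change 0.81). FGF5 rose by 0.66 and the EGF receptor ligand TGFA by 0.66. PDGFB fell to 4.90 ± 1.02 CPM in siCCNL2, against 18.1 ± 1.36 CPM in siNC (log2 fold change -1.91), and PDGFA fell by 1.02 on the log2 scale. Of 12 tested receptor tyrosine kinases 5 fell and 0 rose by edgeR (median log2 fold change -0.10), a called share of 41.7%. Over all tested genes 16.5% were called lower and 17.2% higher. Among the receptors 1 had an unadjusted edgeR p under 0.05 on the higher side. The DESeq2 Wald test also called 0 higher and limma-voom called 1. By edgeR 1 was called higher with no count filter, with a replicate block or without siCCNL2 replicate 2, and 2 without siNC replicate 3. FGFR1 averaged 122 ± 7.36 CPM in siCCNL2 and 154 ± 1.69 CPM in siNC (log2 fold change -0.34), and AXL 965 ± 5.67 CPM in siCCNL2 and 1181 ± 20.9 CPM in siNC (-0.29). PDGFRB, at 4.70 CPM in siCCNL2 and 7.63 CPM in siNC, changed by -0.71, and EGFR and MET were the other 2 that fell (-0.21 and -0.25).

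Adaptors and RAS regulators rose in 3 and fell in 1 of 13 (median log2 fold change 0.00051), a called share of 30.8%. Without siCCNL2 replicate 2, siCCNL2 replicate 3 or siNC replicate 2 the number called lower was 2, as it was under 6 other alternatives. PTPN11, the phosphatase SHP2 that links receptors to RAS, averaged 507 ± 3.67 CPM in siCCNL2 and 338 ± 9.56 CPM in siNC (log2 fold change 0.58, adjusted p = 2.33e-12 by edgeR). The ubiquitin ligase gene CBL rose by 0.28 and the adaptor gene GAB2 by 0.23, while FRS2, the adaptor of FGF receptors, fell by 0.48 on the log2 scale. CBL shares 509 exon bases with MCAM on the opposite strand, a gene called lower, and PTPN11 shares 111 with the abundant RPL6, not called. Of genes named further down, LRIG1 shares 907 exon bases with SLC25A26 and CCND1 shares 497 with LTO1. Both partners lie on the opposite strand and were not called. MKNK1 shares 133 with MOB3C on the same strand, called higher. Overlaps of some other named genes are not listed.

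Of 17 genes of the RAS, RAF, MEK and ERK cascade itself, 3 were called higher, 3 lower and 11 neither (median log2 fold change 0.07). The called share was 35.3%, near the 33.6% of all tested genes. The largest change was in KSR1, a scaffold of the cascade (11.0 ± 0.705 CPM in siCCNL2 and 15.8 ± 1.61 CPM in siNC, log2 fold change -0.53). MAP2K1, which encodes MEK1, fell by 0.22 on the log2 scale and shares 216 exon bases with SNAPC5, called higher. The count of 3 higher was not stable. It was 0 without siCCNL2 replicate 3, by the DESeq2 Wald test and with no count filter, and 1 without siCCNL2 replicate 2, siNC replicate 1 or siNC replicate 2. The calls of MAPK3 (0.19), HRAS (0.17) and RRAS2 (-0.12) were lost under 11, 6 and 4 of 17 alternatives. BRAF, a kinase of the cascade, was not called (log2 fold change 0.10, adjusted p = 0.354 by edgeR).

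ERK substrates and nuclear effectors held the largest share of called genes, 11 of 15, with 8 higher and 3 lower and a median log2 fold change of 0.19. That share was 73.3%, against 33.6% of all tested genes. ETS2, an ETS factor activated by ERK, averaged 74.0 ± 1.68 CPM in siCCNL2 and 46.8 ± 3.21 CPM in siNC (log2 fold change 0.66). RPS6KA4, which encodes the kinase MSK2, rose by 0.62, and ELK4, a partner of serum response factor, by 0.52. ETS1 fell to 576 ± 14.1 CPM in siCCNL2, against 687 ± 17.7 CPM in siNC (-0.26), and the kinase gene MKNK1 fell by 0.37. RPS6KA5, which encodes MSK1 (-0.44), was lost under 3 of 17 alternatives. CIC and ERF, repressors that ERK inactivates, had log2 fold changes of 0.13 (adjusted p = 0.0216) and 0.19 (0.0119) by edgeR.

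Of 10 tested relatives of the members 2 rose, 1 fell and 7 were not called (median log2 fold change 0.0042). The called share was 30%, near the 33.6% of all tested genes. By edgeR 1 relative was called higher without siCCNL2 replicate 1, siNC replicate 1 or siNC replicate 2. DUSP1, an early-response dual-specificity phosphatase, had 90.6, 85.0 and 88.4 CPM in siCCNL2, against 70.5, 72.5 and 71.5 CPM in siNC. Its log2 fold change was 0.30 with SE 0.049 (edgeR adjusted p = 2.93e-05), opposite in sign to DUSP4 and DUSP6, with no overlap between the groups. DUSP16 (0.28) was lost under 7 of 17 alternatives. PHLDA2 had 51.0, 46.8 and 53.7 CPM in siCCNL2, against 71.0, 70.1 and 67.4 CPM in siNC, a log2 fold change of -0.46. SPRY1 (-0.04), SPRED3 (0.12) and ETV1 (-0.0046) were not called. Of 9 other feedback inhibitors, a list that also holds DUSP1, 2 rose and 1 fell, a called share of 33.3%, near that of all tested genes (median log2 fold change 0.07). ERRFI1, an inhibitor of EGFR, rose by 0.24 on the log2 scale, and LRIG1, another inhibitor of ERBB receptors, fell by 0.50, with siNC replicate 3 at 34.5 CPM and the other controls at 24.7 and 26.3.

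Other transcripts known to be induced by ERK rose in 2 and fell in 3 of 13 genes (median log2 fold change -0.04), a called share of 38.5%. Without siNC replicate 3 the number called higher was 4. CCND1, which encodes cyclin D1, fell to 828, 841 and 837 CPM in siCCNL2, against 1793, 1741 and 1747 CPM in siNC (log2 fold change -1.08), a larger change than that of any member. FOSL1, an AP-1 subunit, fell by 0.33 on the log2 scale and the cytokine gene LIF by 0.30. IER2 rose by 0.44 and MAFF by 0.33. MYC (-0.04), IER3 (-0.07) and EPHA2 (-0.07) were not called, and neither were the weakly expressed FOS (0.49, adjusted p = 0.0796 by edgeR) and EGR1 (1.08, adjusted p = 0.0512).

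**Figure D5:**
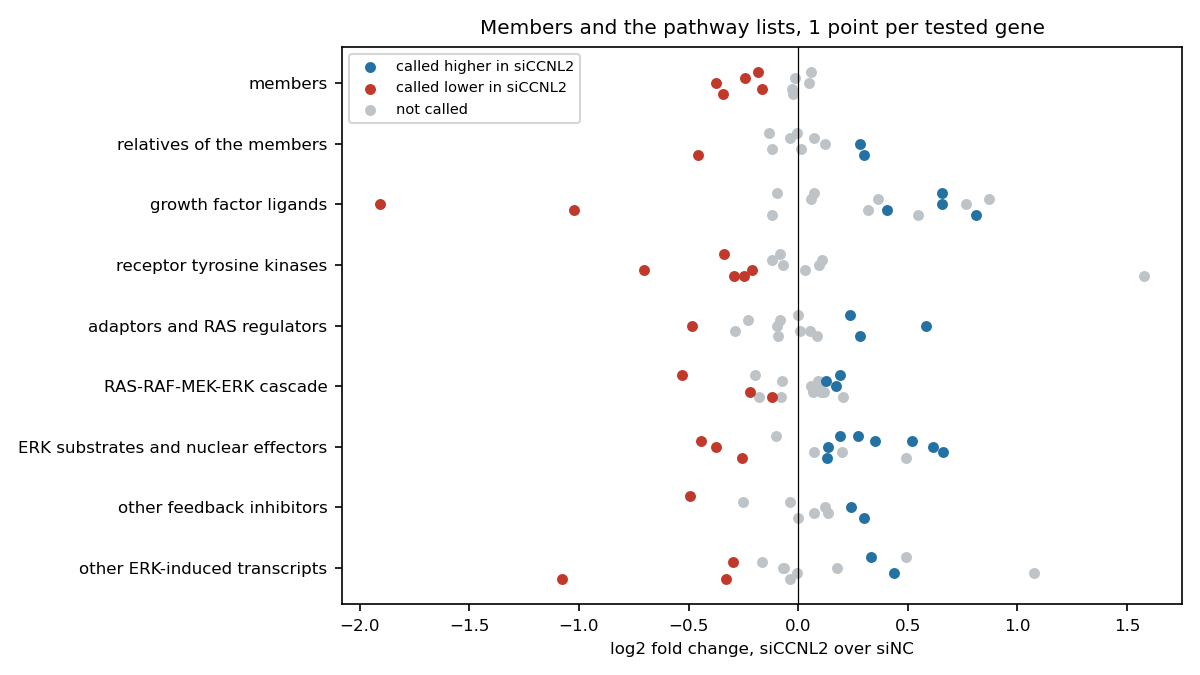
Log2 fold change, siCCNL2 over siNC, of the members and of the genes in 8 pathway lists, 1 point per tested gene, coloured by the edgeR call. Called members lie on the lower side only, at -0.37 to -0.16, while every list except the receptors has called genes on both sides.

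The genes whose profile over the 6 libraries lay nearest to that of DUSP6 were sought among 10630 genes averaging at least 5 CPM. The measure was the root mean square difference of centred log2 CPM. USF1, a transcription factor gene, differed by 0.021, EIF4EBP2, an inhibitor of translation initiation, by 0.023, and ATP6V1B2, a subunit of the vacuolar proton pump, by 0.024. USF1 had 41.2, 44.0 and 44.1 CPM in siCCNL2, against 53.4, 54.9 and 58.2 CPM in siNC. Their log2 fold changes were -0.37, -0.38 and -0.37, near that of DUSP6 because they were chosen for likeness to it over these libraries. Among the members DUSP4 was nearest (0.067, place 240), then SPRY2 (0.088, place 624) and SPRY4 (0.10, place 1019), and ETV5 was farthest (0.22, place 5527).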

How the data were processed

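Total RNA of 6 HEY libraries was sequenced, and each library was assigned to siCCNL2 or siNC by its title. One deposited table gives raw read counts, as whole numbers, for each gene and library. Per the submitters' processing notes, fastp 0.23.0, HISAT2, HTSeq 2.0.1 and GRCh38 were used, with no role or order given. Neither the annotation release nor the strand setting of the counting is given in the sources used here. Another deposited table has a TPM-like score that the authors scaled by gene length and library size. Each column adds up to 1000000 over distinct gene names, and to more over all rows. Over 10902 genes the score equalled the count divided by a gene factor and a library factor, to within 1.36e-09, so the tables carry a single measurement. The table has 62710 rows for 60835 distinct names, and each name was used once.

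Genes were filtered with filterByExpr of edgeR 4.0.16 in R 4.3.3, which left 15346. All of them entered edgeR's quasi-likelihood test with TMM factors and no covariates, and p-values were adjusted by Benjamini-Hochberg. Calls use a threshold of 0.05 on the adjusted p. Fold changes divide siCCNL2 by siNC, and CPM values are TMM-scaled. The script was tested on simulated data. Ratios of 2 members within a library used the score and an exact two-sided permutation test. Total counts ran from 13596286 to 18095529, and the standard errors and intervals cover only the spread and counting error of these libraries. The members and the gene lists were chosen with earlier results of these data known. Named genes are the 10 members, CCNL2, up to 3 called genes per direction in each pathway list with a mean of 5 CPM or more in the higher group, and the 3 genes of at least 5 CPM whose centred log2(CPM + 0.5) over the 6 libraries lay nearest to that of DUSP6. A few other list genes are named with their values, chosen after these were seen. Some list genes that enter the counts are not reported here by name. Alternatives were DESeq2 1.42.0 size factors, upper-quartile or no composition factors, 2 other count filters, the DESeq2 Wald test, limma-voom (limma 3.58.1), limma-trend on log2 scores with a pseudocount of 1 or 0.1, a threshold of 0.01, a replicate block and leaving out each library. Exon overlaps come from GENCODE release 29 on GRCh38, and promoter windows from RefSeq on GRCh38.p14.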

Additional observations from a re-analysis of the deposited data

How the results depend on the processing

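Over 17 alternatives the number of members called lower was 4 or 5 and the number called higher 0. DUSP4, DUSP6, SPRY2 and SPRY4 were called lower under all 17, with largest adjusted p of 0.0462, 0.0012, 0.0298 and 0.0095. SPRED1 lost its call on log2 of the score plus 1 (log2 fold change -0.17) and plus 0.1 (-0.18), and ranged from -0.20 to -0.12 when a library was left out. The cause was not tested, and leaving out a library also leaves fewer samples. Uncalled members near 0 changed sign when a library was left out: DUSP5 ranged from -0.047 to 0.0023, ETV4 from -0.056 to 0.012 and PHLDA1 from -0.053 to 0.013. Calls over all genes ran from 3612 at the stricter threshold to 5234 with the replicate block, and scaling shifted the median of all genes by under 0.1. With the replicate number as a replicate block DUSP6 stayed at -0.37 and 5 members were called lower. Same-numbered libraries correlated at 0.022 to 0.041 in their deviations, against -0.043 to 0.0085 for other numbers. Each correlated best with its own number, but all values were small. Whether the numbers pair the samples cannot be told from them. Depth limits DUSP4 most, at 298 to 483 counts per library.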

Other observations

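Several genes of the pathway lists were too low to test. DUSP2 and FGF9 had 0 counts in every library, and DUSP8, DUSP9, FGF7, HGF, IGF2, ERBB3, FGFR2 and PDGFRA reached at most 17 counts in any library. The EGF-like ligands EREG and AREG, both weakly expressed, were not called (log2 fold changes 0.87 and 0.55, edgeR adjusted p = 0.153 and 0.351). HBEGF, another ligand of this family, averaged 46.7 ± 16.5 CPM in siCCNL2 and 35.9 ± 2.62 CPM in siNC (SD, n = 3 each) with overlapping groups, and was not called (log2 fold change 0.36, edgeR adjusted p = 0.0685).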
